A study of Homo sapiens with 12 samples.

Results

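The mRNAs of 52 genes for translation initiation factors and their direct regulators were followed through streptavidin pull-downs of 2 biotinylated microRNAs. They are the genes whose symbol starts with EIF1 to EIF6, together with MCTS1 and DENR, that had a probe in the deposited table. They make up 52 of the 9581 named genes of that table and were measured by 69 probes. All arrays came from HEK293T, an established line from human embryonic kidney with the T antigen of SV40. Every culture, inputs included, was transfected by HiPerFect with 200 pmol of a biotin-labelled duplex of one microRNA, miR-3118-3p in one arm and miR-4307-3p in the other. After 24 hours the microRNA and the RNA bound to it were caught on streptavidin beads. Each of the 2 microRNAs had 3 pull-down and 3 input arrays, the input being labelled as not pulled down. No group without a microRNA or with an unrelated biotinylated RNA was used here, so RNA that binds beads on its own and RNA bound through a microRNA cannot be told apart by group. ACACA, whose product carries biotin and is a known companion of streptavidin beads, was higher with both microRNAs, at 3.31 ± 0.17 and 3.14 ± 0.17 (log2, SE), and the part of such binding in any value below was not tested.

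Initiation begins when EIF2 brings the initiator tRNA, as a complex with GTP, to the small ribosomal subunit. EIF1, EIF1A, EIF3 and EIF5 join it there, and the EIF4 proteins load the subunit onto the capped end of an mRNA, from which it scans to the start codon. EIF5B then joins the large subunit. The classical points of control are kinases that phosphorylate EIF2 and thereby block its exchange factor EIF2B, and binding proteins that hold the cap-binding protein EIF4E. MicroRNAs act on mRNAs as guides of Argonaute, mainly through the seed near their 5′ end, and an mRNA recovered with a biotinylated microRNA is a candidate for such binding.

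The sequences of the 2 microRNAs are shown because the labels name the microRNA as the difference between the 2 arms. They are RefSeq's mature forms on GRCh38.p14, which carry the same names without the suffix 3p, and both lie on the 3′ side of their hairpins. Capitals mark the seed, bases 2 to 8 from the 5′ end.
miR-3118-3p: uGUGACUGcauuaugaaaauucu
miR-4307-3p: aAUGUUUUuuccuguuucc
RefSeq gives the first from 4 loci with the same mature sequence, among them chr21:13644784-13644806 on the minus strand, and the second from chr14:26908697-26908715 on the plus strand. The seeds differ, and 6 of the 7 seed bases of miR-4307-3p are A or U, against 3 of 7 for miR-3118-3p. Their perfect complements in an mRNA would read CAGUCAC and AAAACAU. No transcript sequences were used here, so no site was searched for in any mRNA below. The labels do not print the transfected sequences.

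Levels are normalized log2 intensities, and a difference is the mean of 3 pull-down arrays minus the mean of 3 input arrays on the log2 scale, given ± its standard error (SE). A gene is called higher or lower where limma's p-value, adjusted over all 9581 genes, is under 0.05. The deposited arrays had nearly equal medians, from 7.53 to 7.59. A difference therefore tells how an mRNA fared against the rest of the RNA, not how much was recovered. Nothing in the labels tells whether the replicates were grown and transfected apart. The p-values therefore rest on array-to-array spread that could be purely technical. The miR-3118-3p pull-down was the least even group. Its arrays correlated across all probes at 0.963 to 0.983, with replicate 1 farthest from the others, whereas arrays of the other 3 groups correlated at 0.988 or more. The median SD over the 52 genes was 0.251 there and 0.127 to 0.139 in the other groups. Of the markers listed for HEK293T cells, 6 of 8 were in the table, all but PAX2 and LHX1. Their means in the miR-3118-3p input ran from 6.57 (NEFL) to 12.3 (VIM). VIM was called lower with each microRNA (-0.74 and -0.72) and TUBB3 with miR-3118-3p (-0.74). NEFM was called higher with miR-4307-3p (0.57) and for the difference between the microRNAs (0.87), and NEFL, INA and CDH2 were not called. The listed leukocyte (0 of 4), erythroid (0 of 3) and endothelial (0 of 3) markers were not in the table. Of the hepatocyte markers 1 of 3 and of the fibroblast markers 1 of 3 were in the table, with group means from 5.86 to 6.75. The hepatocyte marker, ALB, was nevertheless called lower with miR-3118-3p (-0.50 ± 0.13 (adjusted p = 0.0144)) and called for the difference between the microRNAs (0.74 ± 0.19 (adjusted p = 0.0216)), losing these calls in 1 of 12 and 6 of 12 fits without 1 array. Its part in the results below was not tested.

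With miR-3118-3p, the recovered initiation factor mRNAs were led by DENR, EIF3E and EIF2AK2, and the depleted ones by MCTS1 and EIF2B2. DENR and MCTS1 encode the partners of one complex that recycles the small subunit and allows reinitiation, and they went in opposite directions. Of the 52 genes, 8 were higher in the pull-down than in its input (15.4%, against 12.7% of all genes) and 8 were lower (15.4%, against 10.9% of all genes). The median difference of the 52 was 0.02, and that of all genes was 0.00. The 3 pull-down values lay above all 3 inputs for 9 of the 52 (16.8% of all genes) and below them for 11 (18.0% of all genes). These shares were near those of the whole table. A fit to the 6 miR-3118-3p arrays by themselves called 6 higher and 2 lower, the latter being EIF2B2 and MCTS1. Cyclic loess normalization left 4 lower. The lower count also moved with single arrays: 14 when pull-down replicate 1 of miR-3118-3p was left out, 4 when its replicate 2 was, and 3 when input replicate 3 was.

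With miR-4307-3p the largest rise was that of EIF5B, the GTPase that joins the ribosomal subunits, followed by EIF4E2, EIF3J and EIF3I. The largest falls were those of EIF2B2, MCTS1 and EIF3F. Of the 52 genes 6 were higher (11.5%, against 8.04% of all genes) and 7 lower (13.5%, against 6.11% of all genes), with a median of -0.03 against -0.02 for all genes. Pull-down values lay above all inputs for 13 of the 52 (19.0% of all genes) and below them for 14 (20.1% of all genes). A fit to the 6 miR-4307-3p arrays by themselves called 9 higher and 9 lower, and leaving out pull-down replicate 1 of miR-3118-3p, whose variance is pooled into this fit, gave 9 higher. The count of lower genes fell to 3 without pull-down replicate 2 or 3 or without input replicate 1, 2 or 3 of miR-4307-3p, and to 4 without input replicate 2 or 3 of miR-3118-3p. The count of higher genes was 4 at its lowest among the 12 fits that left out 1 array.

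**Figure D1:**
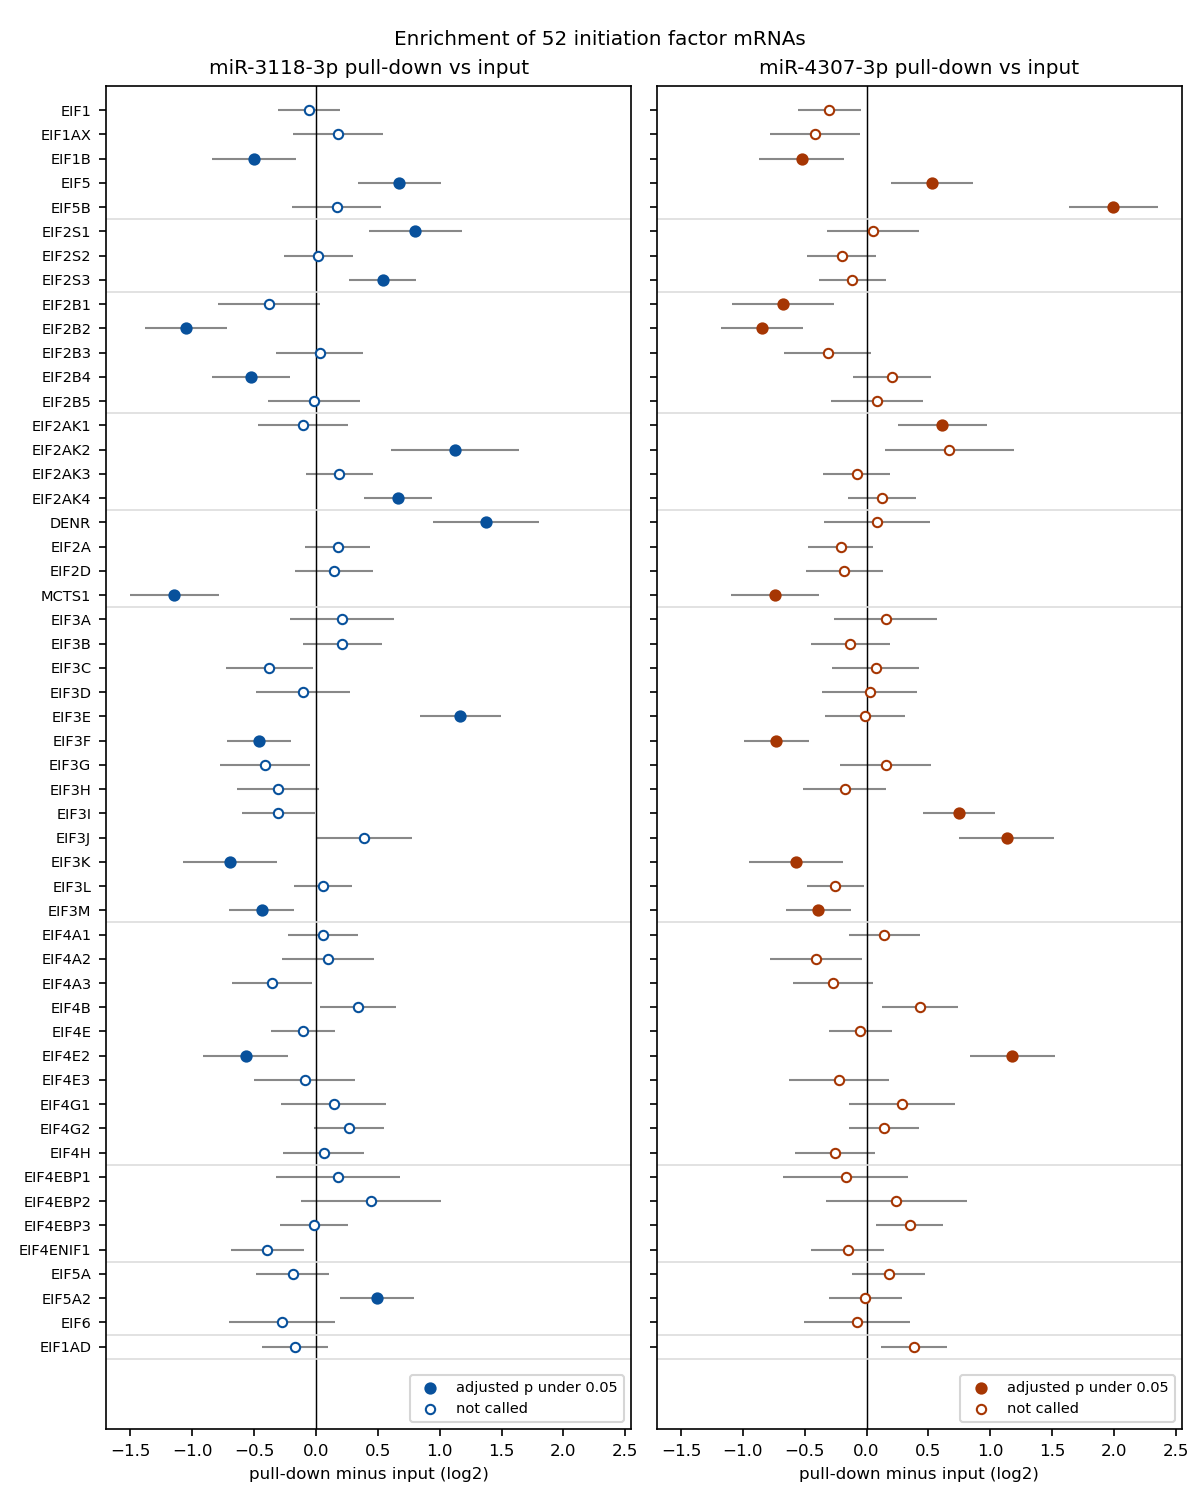
Difference between pull-down and input (log2, horizontal axis) of all 52 mRNAs, grouped by role from top to bottom, for miR-3118-3p (left, blue) and miR-4307-3p (right, brown). Points are fitted differences from 3 against 3 arrays, bars their 95% intervals, and filled points are those called; EIF5B with miR-4307-3p, at 1.99, lies farthest from 0.

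The factors of start codon selection and subunit joining held the single largest value. EIF5B read 9.84, 10.15 and 9.92 after pull-down with miR-4307-3p and 8.29, 7.91 and 7.73 in its input. All 3 pull-down values were more than 1 unit above every input value. The rise was 1.99 ± 0.17 (adjusted p = 1.29e-06) and ranged from 1.87 to 2.15 over 23 other settings, called in each. EIF5B had 1 probe, so the rules for choosing probes could not change its difference. With miR-3118-3p, EIF5B read 8.04, 8.12 and 8.48 against 7.87, 7.97 and 8.29 in the input, groups that overlapped, at 0.17 ± 0.17 (adjusted p = 0.508). EIF5, which makes EIF2 hydrolyse its GTP at the start codon, read 9.52, 9.86 and 9.46 after pull-down with miR-3118-3p and 8.97, 9.04 and 8.81 in its input. With miR-4307-3p it read 9.56, 9.85 and 9.27 against 9.09, 8.86 and 9.14. The pull-down values were above all inputs with each microRNA, and EIF5 was the only one of the 52 called higher with both (1.64% of all genes were). The rises were 0.68 ± 0.16 (adjusted p = 0.00683) and 0.53 ± 0.16 (adjusted p = 0.0344). Its 2 dimmer probes gave less, 0.24 and 0.19 with miR-3118-3p and 0.27 and 0.03 with miR-4307-3p. By the dimmest, neither call was kept (adjusted p = 0.345 and 0.923), and by the mean of all 3 probes the second was not (0.165). The call with miR-4307-3p was lost without pull-down replicate 1 (adjusted p = 0.0743) or 2 (0.175) or input replicate 1 (0.0741), 2 (0.147) or 3 (0.0566).

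EIF1 and EIF1A hold the scanning ribosome open until the start codon is met, and none of their genes was higher. EIF1B, a close paralogue of EIF1, read 9.89, 9.84 and 10.05 after pull-down with miR-3118-3p and 10.28, 10.50 and 10.49 in its input. With miR-4307-3p the values were 10.40, 9.87 and 9.71 against 10.68, 10.45 and 10.42. Both pull-downs lay below their inputs, with falls of -0.50 ± 0.16 (adjusted p = 0.0347) and -0.52 ± 0.16 (adjusted p = 0.0395). Those calls were close to the threshold. The first was lost without pull-down replicate 2 (adjusted p = 0.0980) or input replicate 2 (0.107) or 3 (0.102) of miR-3118-3p, and with its 6 arrays alone (0.0522). Cyclic loess ended both calls (0.0849 and 0.0865). The second call was also lost in 7 of 12 fits that left out 1 array: all 3 input arrays and pull-down arrays 2 and 3 of miR-4307-3p, and input arrays 2 and 3 of miR-3118-3p (adjusted p from 0.0520 to 0.209). EIF1 itself was at -0.06 ± 0.12 and -0.30 ± 0.12 and the X-linked EIF1AX at 0.18 ± 0.17 and -0.41 ± 0.17, not called. EIF1AD, named for an EIF1A-like domain, was at -0.17 ± 0.13 with miR-3118-3p and 0.39 ± 0.13 (adjusted p = 0.0528) with miR-4307-3p, where its pull-down values lay above all inputs without passing the test.

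EIF2 is a trimer of alpha (EIF2S1), beta (EIF2S2) and gamma (EIF2S3). The first and the last rose with miR-3118-3p and were not called with miR-4307-3p. EIF2S1 read 8.73, 8.94 and 8.96 after pull-down with miR-3118-3p and 7.72, 8.07 and 8.43 in its input, with no overlap, a rise of 0.80 ± 0.18 (adjusted p = 0.00497). EIF2S3, which binds the GTP and the tRNA, read 11.11, 11.23 and 10.80 against 10.40, 10.57 and 10.55, again with no overlap, a rise of 0.54 ± 0.13 (adjusted p = 0.00768). With the spread of those 6 arrays alone the call of EIF2S3 was lost (adjusted p = 0.0552). EIF2S2 was at 0.02 ± 0.13. With miR-4307-3p the 3 subunits were at 0.05 ± 0.18, -0.20 ± 0.13 and -0.12 ± 0.13, and the groups of all 3 overlapped. Tested directly, EIF2S3 differed between the microRNAs by -0.65 ± 0.18 (adjusted p = 0.0370), a call lost in 10 of 12 fits without 1 array, all but those without pull-down replicate 1 or 3 of miR-3118-3p (adjusted p from 0.0566 to 0.0993). For EIF2S1 that difference was -0.75 ± 0.25 (adjusted p = 0.0836), and for EIF2S2 -0.22, neither called.

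EIF2B reloads EIF2 with GTP. Its alpha, beta and delta subunits (EIF2B1, EIF2B2 and EIF2B4) form the regulatory core that senses phosphorylated EIF2, and gamma and epsilon (EIF2B3 and EIF2B5) form the catalytic part. EIF2B2 was lower with both microRNAs. It read 8.61, 8.39 and 9.00 after pull-down with miR-3118-3p and 9.70, 9.67 and 9.79 in its input. For miR-4307-3p the values were 8.86, 8.77 and 8.58 against 9.77, 9.59 and 9.38. Neither pair of groups overlapped. The falls were -1.05 ± 0.16 (adjusted p = 0.000428) and -0.84 ± 0.16 (adjusted p = 0.00171), called in each of 23 other settings. EIF2B1 read 8.35, 8.18 and 8.12 after pull-down with miR-4307-3p against 8.87, 8.90 and 8.92 in the input, without overlap. This fall of -0.68 ± 0.19 (adjusted p = 0.0284) was lost without pull-down replicate 2 (adjusted p = 0.0909) or 3 (0.114) or input replicate 1 (0.0737), 2 (0.0822) or 3 (0.0840). With miR-3118-3p EIF2B1 was at -0.38 ± 0.19 with overlapping groups. EIF2B4 was lower with miR-3118-3p alone among the calls, at -0.52 ± 0.15 (adjusted p = 0.0193), and stood at 0.21 ± 0.15 with miR-4307-3p. The difference between the microRNAs was 0.73 ± 0.21 (adjusted p = 0.0447). Its other probe, of nearly the same mean level, gave -0.42 with miR-3118-3p and was not called (adjusted p = 0.0934), nor was its difference (0.0765). The call with miR-3118-3p was also lost without pull-down replicate 2 (0.0771) or input replicate 3 (0.0803), with those 6 arrays alone (0.0765) and with array weights (0.101). The difference was lost with array weights (0.0818) and in 10 of 12 fits without 1 array, all but those without pull-down replicate 1 or 3 of miR-3118-3p (0.0630 to 0.124). EIF2B3 and EIF2B5 were not called with either, at 0.03 and -0.02 with miR-3118-3p and -0.31 and 0.08 with miR-4307-3p.

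The 4 EIF2 kinases respond to different signals. With miR-3118-3p 2 of them were higher (12.7% of all genes), and with miR-4307-3p 1 was (8.04% of all genes). For the difference between the microRNAs 0 of the 4 were called, with values from -0.54 to 0.72. EIF2AK2 (PKR), which is activated by double-stranded RNA, read 10.03, 11.26 and 10.04 after pull-down with miR-3118-3p and 9.36, 9.51 and 9.08 in its input. Replicate 2 was the highest, and all 3 lay above the inputs, a rise of 1.12 ± 0.24 (adjusted p = 0.00484). Without pull-down replicate 2 it was 0.71 (adjusted p = 0.00507). With miR-4307-3p it read 9.87, 10.06 and 10.07 against 9.39, 9.21 and 9.38, also without overlap, at 0.67 ± 0.24 (adjusted p = 0.0820), and it was called with the replicate number as a block within each microRNA (adjusted p = 0.0107). EIF2AK4 (GCN2), which senses amino acid shortage, read 8.20, 8.28 and 7.81 against 7.40, 7.45 and 7.47 with miR-3118-3p. The groups did not overlap, and the rise was 0.66 ± 0.13 (adjusted p = 0.00259). With miR-4307-3p the pull-down values of EIF2AK4 were also above all inputs, at 0.13 ± 0.13 (adjusted p = 0.575). EIF2AK1 (HRI), the haem-regulated kinase that also relays mitochondrial stress, was called with miR-4307-3p. It read 11.80, 11.68 and 11.90 in that pull-down and 10.93, 11.12 and 11.48 in its input, all higher, a rise of 0.61 ± 0.17 (adjusted p = 0.0240). The call was lost without pull-down replicate 1 (adjusted p = 0.0603) or 3 (0.106) or input replicate 1 (0.121) or 2 (0.0861). Its dimmer probe gave 0.42 and was not called (0.0788). EIF2AK1 stood at -0.10 ± 0.17 with miR-3118-3p. EIF2AK3 (PERK), the kinase of the endoplasmic reticulum, was at 0.19 ± 0.13 and -0.08 ± 0.13 and was one of 3 members with a mean level below the first quartile of the table.

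Among the factors of reinitiation, recycling and alternative tRNA delivery, DENR was the mRNA with the largest rise in the miR-3118-3p pull-down. It read 11.84, 12.85 and 11.98 there and 10.92, 10.80 and 10.83 in the input. All 3 values lay above the inputs by almost 1 unit or more, and replicate 2 was the highest. The rise was 1.38 ± 0.20 (adjusted p = 0.000396), and the dimmer of its 2 probes gave 1.00. With miR-4307-3p DENR read 10.85, 11.00 and 10.92 against 10.72, 10.72 and 11.08, which overlapped, at 0.09 ± 0.20 (adjusted p = 0.833). Its partner MCTS1 read 7.89, 8.05 and 8.20 after pull-down with miR-3118-3p and 8.98, 8.99 and 9.61 in the input. For miR-4307-3p they were 8.78, 8.50 and 8.46 against 9.46, 9.14 and 9.36. Neither pair overlapped. The falls of MCTS1 were -1.15 ± 0.17 (adjusted p = 0.000418) and -0.74 ± 0.17 (adjusted p = 0.00787), called in each of 23 other settings. EIF2D, which resembles the MCTS1 and DENR pair in a single protein, was at 0.15 ± 0.15 and -0.18 ± 0.15, and EIF2A, an alternative tRNA carrier unrelated to the EIF2 subunits, at 0.18 ± 0.12 and -0.21 ± 0.12. Neither was called.

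**Figure D2:**
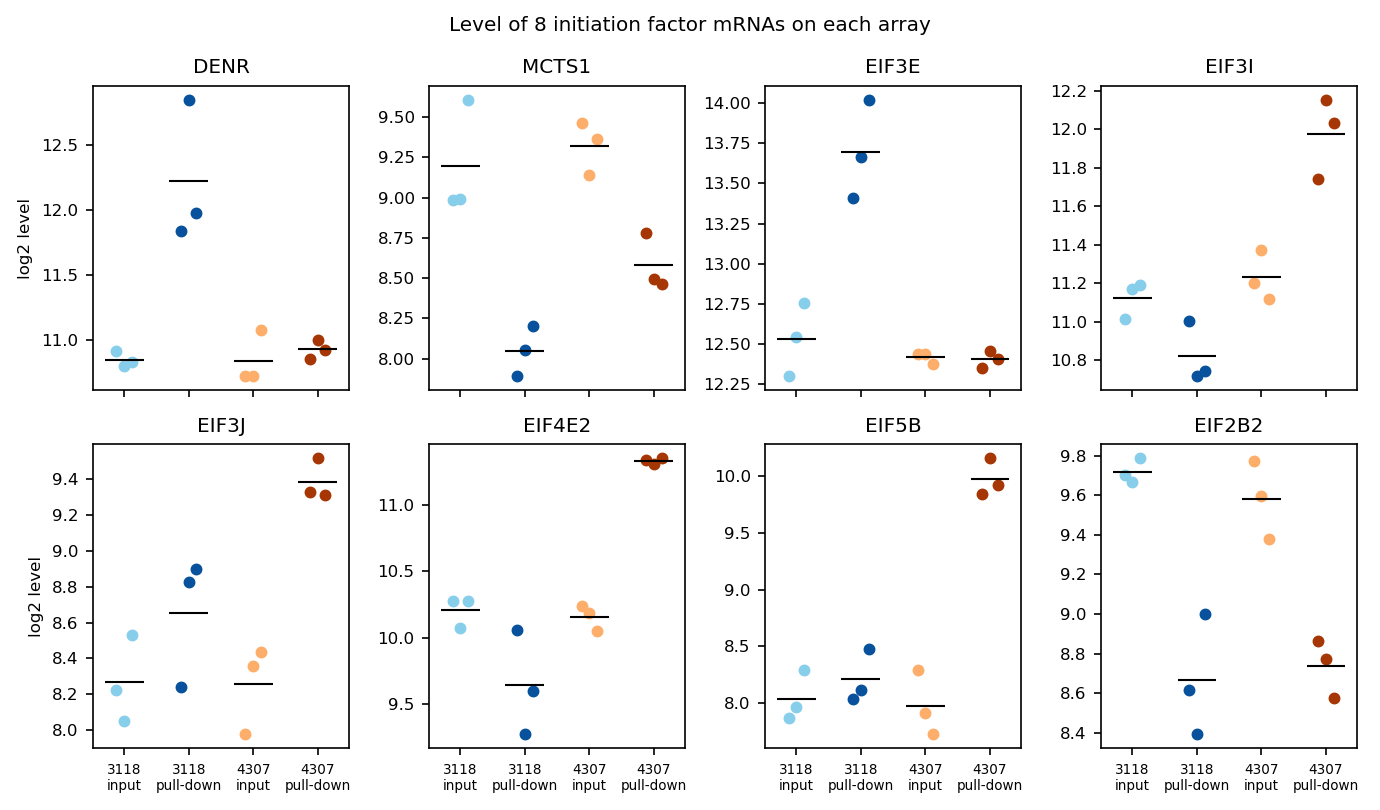
Normalized log2 level (vertical axis, a separate range in each panel) of 8 mRNAs on each of the 12 arrays, by group from left to right. Points are arrays and bars group means of 3; DENR and EIF3E are high in the miR-3118-3p pull-down, EIF3I, EIF3J, EIF4E2 and EIF5B after miR-4307-3p, and MCTS1 and EIF2B2 are low in both.

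EIF3 is the largest initiation factor, a scaffold of 13 subunits on the small ribosomal subunit, and all 13 were measured. With miR-3118-3p 1 was higher and 3 were lower (12.7% and 10.9% of all genes), and with miR-4307-3p 2 were higher and 3 lower (8.04% and 6.11% of all genes). Their median difference was -0.30 with miR-3118-3p and -0.01 with miR-4307-3p. In mammals 8 of them (A, C, E, F, H, K, L and M) form an octamer built on PCI and MPN domains. Within the octamer the medians were -0.34 and -0.22, and 3 of the 8 were lower with each microRNA, EIF3F, EIF3K and EIF3M in both cases (10.9% and 6.11% of all genes were lower). With the 6 miR-3118-3p arrays alone, limma called none of these 3 lower (adjusted p = 0.0639, 0.0603 and 0.0805).

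EIF3E was the one octamer gene called higher, and only with miR-3118-3p. It read 13.41, 13.66 and 14.02 after pull-down with miR-3118-3p and 12.30, 12.54 and 12.75 in its input. Every pull-down value lay above every input, and the rise was 1.17 ± 0.15 (adjusted p = 0.000198), called in each of 23 other settings. With miR-4307-3p it read 12.35, 12.46 and 12.40 against 12.43, 12.43 and 12.37, at -0.01 ± 0.15 (adjusted p = 0.972) with a 95% interval of -0.34 to 0.31. EIF3F, an MPN subunit, read 10.12, 10.11 and 10.16 against 10.67, 10.41 and 10.70 with miR-3118-3p and 9.94, 10.11 and 9.98 against 10.58, 10.85 and 10.78 with miR-4307-3p. It was below its inputs on all 6 pull-down arrays, with falls of -0.46 ± 0.12 (adjusted p = 0.0140) and -0.73 ± 0.12 (adjusted p = 0.000822). The first call was lost without input replicate 1 (adjusted p = 0.0515) or 3 (0.0634) of miR-3118-3p and with cyclic loess (0.0619). EIF3K, the smallest PCI subunit, read 10.86, 10.10 and 10.79 against 11.20, 11.43 and 11.20 with miR-3118-3p, and with miR-4307-3p 10.92, 10.47 and 10.55 against 11.23, 11.25 and 11.18. Its groups did not overlap in either comparison, and the differences were -0.69 ± 0.18 (adjusted p = 0.0122) and -0.57 ± 0.18 (adjusted p = 0.0443). Those calls were lost without input replicate 2 of miR-3118-3p in the first (0.0565) and in 8 of 12 fits without 1 array in the second, namely any input array of either microRNA and the pull-down arrays 2 and 3 of miR-4307-3p (0.0558 to 0.169). The second call was also lost with quantile normalization (0.0611) and cyclic loess (0.0886). Without pull-down replicate 2 of miR-3118-3p, the lowest of its group, the first difference was -0.45 (adjusted p = 0.0494).

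EIF3M read 10.17, 9.88 and 9.96 against 10.42, 10.34 and 10.55 with miR-3118-3p and was at -0.44 ± 0.12 (adjusted p = 0.0182) and -0.39 ± 0.12 (adjusted p = 0.0455). The second of its 2 probes, of nearly the same mean level, went further, to -0.71 and -0.95. The first call was lost without pull-down replicate 2 (adjusted p = 0.0673) or input replicate 3 (0.0799), and the second without any single array other than the 3 pull-down arrays of miR-3118-3p (0.0549 to 0.170). Cyclic loess ended both (0.0759 and 0.154), and quantile normalization the second (0.0540). EIF3H, the other MPN subunit, lay below all inputs with miR-3118-3p but at -0.31 ± 0.16 did not pass, and was at -0.18 ± 0.16 with miR-4307-3p. The long scaffold subunits EIF3A, EIF3C and EIF3L were not called with either microRNA. They stood at 0.21, -0.38 and 0.06 with miR-3118-3p and at 0.16, 0.07 and -0.25 with miR-4307-3p. EIF3C has a near-identical second copy in the genome, so the source of its probe signal is uncertain.

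Outside the octamer 2 of 5 subunits rose with miR-4307-3p (8.04% of all genes did). EIF3J, a loosely bound subunit at the decoding site, read 9.33, 9.52 and 9.31 in that pull-down and 7.97, 8.36 and 8.44 in its input. All 3 pull-down values were higher, a rise of 1.13 ± 0.18 (adjusted p = 0.000551). With miR-3118-3p, EIF3J read 8.24, 8.83 and 8.90 against 8.22, 8.05 and 8.53, with replicate 1 among the inputs, at 0.39 ± 0.18 (adjusted p = 0.137). The difference of the 2 enrichments was 0.74 ± 0.26 (adjusted p = 0.0998), not called. EIF3I, a WD40 propeller protein bound to EIF3B, read 11.74, 12.15 and 12.03 against 11.20, 11.37 and 11.12 with miR-4307-3p. It was higher on all 3 arrays, by 0.74 ± 0.14 (adjusted p = 0.00173). With miR-3118-3p it read 11.00, 10.72 and 10.74 against 11.01, 11.17 and 11.19, lower on all 3 arrays but not called, at -0.30 ± 0.14 (adjusted p = 0.123). EIF3B was at 0.21 ± 0.15 and -0.13 ± 0.15, EIF3D, which can bind caps itself, at -0.10 ± 0.18 and 0.02 ± 0.18, and EIF3G at -0.41 ± 0.17 and 0.15 ± 0.17.

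The 10 measured EIF4 genes were those of EIF4A, EIF4B, EIF4E, EIF4G and EIF4H. With miR-3118-3p 0 were higher and 1 was lower (12.7% and 10.9% of all genes). With miR-4307-3p 1 was higher and 0 were lower (8.04% and 6.11% of all genes). It was the same gene in opposite directions. EIF4E2 (4EHP) binds caps without recruiting EIF4G and takes part in repression. It read 11.34, 11.31 and 11.36 after pull-down with miR-4307-3p and 10.24, 10.19 and 10.05 in its input, more than 1 unit higher on each array. The rise was 1.18 ± 0.16 (adjusted p = 0.000130), called in each of 23 other settings. In the miR-3118-3p pull-down it read 10.06, 9.27 and 9.59 against 10.27, 10.07 and 10.27, all lower, with replicate 1 close to the lowest input. That fall of -0.57 ± 0.16 (adjusted p = 0.0197) was less certain, being lost without pull-down replicate 2 (adjusted p = 0.0929) or input replicate 1 (0.0650) or 3 (0.0679) of miR-3118-3p, with those 6 arrays alone (0.0959) and with cyclic loess (0.0617). EIF4E2 was the only one of the 52 called in opposite directions (0.856% of all genes were). The main cap-binding protein EIF4E was at -0.10 ± 0.12 and -0.05 ± 0.12 by its brighter probe, and 0.36 and 0.35 by the dimmer one, and EIF4E3 at -0.09 ± 0.19 and -0.22 ± 0.19.

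The scaffold EIF4G1 was at 0.14 ± 0.20 and 0.29 ± 0.20, and EIF4G2 (DAP5), which lacks the EIF4E site, at 0.27 ± 0.13 and 0.14 ± 0.13. Of its other probes, the brighter gave 0.37 and 0.14, the first of which was called in a fit over all probes (adjusted p = 0.0369), and the dimmer gave -0.41 and -0.50, not called. EIF4B, the cofactor of the EIF4A helicases, was above all inputs with each microRNA, at 0.34 ± 0.14 (adjusted p = 0.0985) and 0.43 ± 0.14 (adjusted p = 0.0573). With miR-4307-3p it was called with the replicate number as a block, across both microRNAs (adjusted p = 0.0262) or within each (0.0178). The related EIF4H was at 0.06 ± 0.15 and -0.26 ± 0.15. The helicases EIF4A1 (0.06 and 0.14) and EIF4A2 (0.10 and -0.41), and EIF4A3 of the exon junction complex (-0.35 and -0.27), were not called. Nor were the EIF4E binding proteins EIF4EBP1 (0.18 and -0.17), EIF4EBP2 (0.45 and 0.24) and EIF4EBP3 (-0.01 and 0.35), or the shuttling protein EIF4ENIF1 (4E-T, -0.39 and -0.15). EIF4EBP1 read 7.87, 6.63 and 6.71 in the miR-3118-3p pull-down, where replicate 1 stood more than 1 unit above both others.

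Of the remaining genes, EIF5A2, the less widely expressed form of the hypusine-bearing factor that keeps elongation moving, was higher with miR-3118-3p, at 0.49 ± 0.14 (adjusted p = 0.0193). It read 5.99, 6.52 and 6.36 against 5.75, 5.91 and 5.73, near the bottom of the table. The call was lost without pull-down replicate 2 (adjusted p = 0.0854) or input replicate 1 (0.0610) or 3 (0.0684) of miR-3118-3p, and with those 6 arrays alone (0.0844). It was at -0.01 ± 0.14 with miR-4307-3p. EIF5A, which has processed copies elsewhere in the genome, was at -0.19 ± 0.14 and 0.18 ± 0.14, and EIF6, which keeps free large subunits apart from small ones, at -0.27 ± 0.20 and -0.08 ± 0.20.

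The enrichments of the 2 microRNAs were then compared directly, as the difference of miR-4307-3p minus miR-3118-3p. Of the 52 genes 4 had a higher enrichment with miR-4307-3p (4.73% of all genes) and 3 a lower one (2.86% of all genes). EIF5B differed by 1.83 ± 0.24 (adjusted p = 0.000159), EIF4E2 by 1.74 ± 0.23 (adjusted p = 0.000152) and EIF3I by 1.05 ± 0.19 (adjusted p = 0.00271). In the other direction stood EIF3E at -1.18 ± 0.22 (adjusted p = 0.00249) and DENR at -1.29 ± 0.29 (adjusted p = 0.00943). For DENR the dimmer probe gave -0.60, not called (adjusted p = 0.281). The difference of EIF3E, EIF3I, EIF4E2 and EIF5B was called in each of 22 other settings. EIF2B4 and EIF2S3, described above, made up the rest, and the count was 11 when pull-down replicate 1 of miR-3118-3p was left out. Called lower with both microRNAs were 6 of the 52 (3.21% of all genes): EIF1B, EIF2B2, EIF3F, EIF3K, EIF3M and MCTS1. Across the 52 genes the 2 enrichments correlated at r = 0.33 (rho = 0.35), close to r = 0.35 (rho = 0.44) across all 9581 genes. These points share arrays, beads and processing, and genes are not independent replicates.

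**Figure D3:**
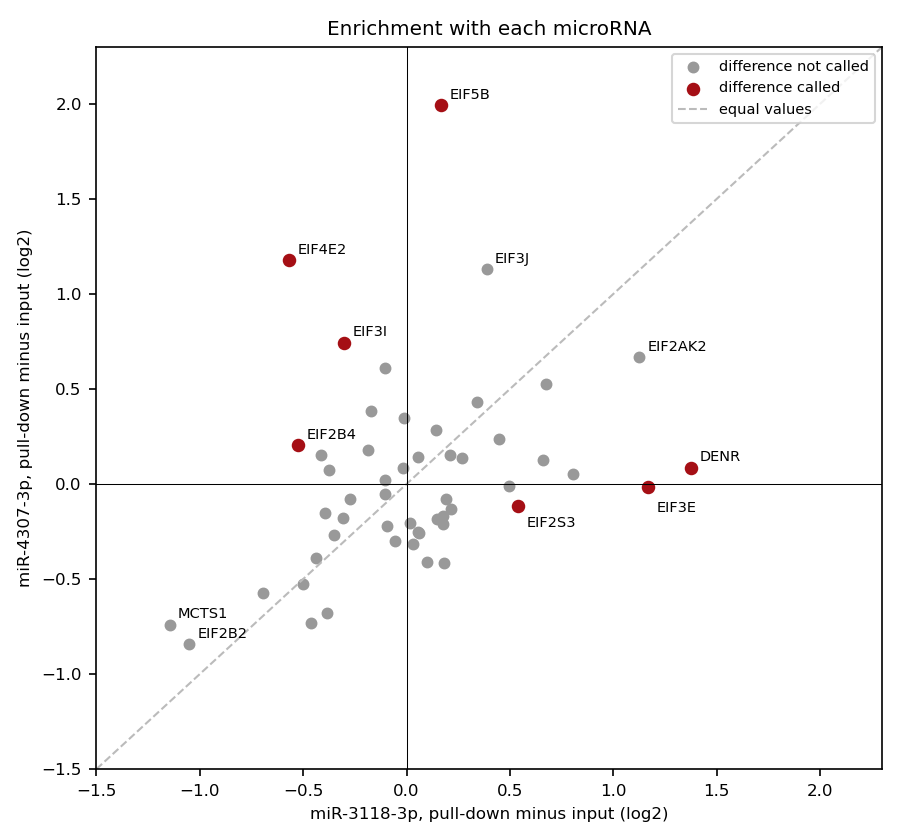
Difference between pull-down and input (log2) with miR-3118-3p (horizontal) against miR-4307-3p (vertical) for the 52 mRNAs. Each point is a gene, red where the difference between the microRNAs was called, and the dashed line marks equal values; EIF5B and EIF4E2 lie far above it, DENR and EIF3E below it, and MCTS1 and EIF2B2 at the lower left.

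The starting RNA was compared next, as miR-4307-3p input minus miR-3118-3p input. By limma 0 of the 52 genes and 0% of all genes were called. An unadjusted p under 0.05 was found for 1 of the 52, EIF4E at -0.29 ± 0.12, and for 1.67% of all genes. The inputs did not overlap for 4 of the 52. Those of EIF2AK4 (0.18), EIF2B1 (0.31) and EIF5A2 (0.17) were higher with miR-4307-3p (5.44% of all genes were), and those of EIF4E lower (3.79% of all genes). For the genes with the largest differences of enrichment the input differences were small, -0.07 ± 0.17 for EIF5B, -0.05 ± 0.16 for EIF4E2, -0.12 ± 0.15 for EIF3E and -0.01 ± 0.20 for DENR.

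Large and small subunits of EIF2 with EIF2B, EIF3 and EIF4 were set against each other within each pull-down. The large class held 10 subunits (EIF2B4, EIF2B5, EIF3A, EIF3B, EIF3C, EIF3D, EIF3L, EIF4B, EIF4G1 and EIF4G2) and the small class the other 21. No protein lengths were used here, so the classes come from a list and no share of all genes by size can stand beside them. With miR-3118-3p 0 of the 10 large subunits were higher and 1 was lower, against 3 higher and 5 lower of the 21 small ones (12.7% and 10.9% of all genes). With miR-4307-3p limma called 0 of the 10 in either direction, against 3 higher and 5 lower of the 21 (8.04% and 6.11% of all genes). The medians were 0.10 for the large and -0.10 for the small with miR-3118-3p, and 0.11 and -0.20 with miR-4307-3p. The large ones ranged from -0.52 to 0.34 and from -0.25 to 0.43.

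Per array, the mean level of the large minus that of the small subunits was 0.17, 0.28 and 0.45 after miR-3118-3p pull-down and 0.03, 0.24 and 0.28 in its input. It was 0.32, 0.48 and 0.46 after miR-4307-3p pull-down and 0.27, 0.26 and 0.16 in its input. The absolute level depends on the probes, so only the change is of use. The miR-3118-3p groups overlapped, and the miR-4307-3p pull-down lay above its input. The change was 0.12 with miR-3118-3p and 0.19 with miR-4307-3p, against SDs of 0.14 and 0.09 between the pull-down arrays. The former was 0.0385 without input replicate 1 and 0.0405 without pull-down replicate 3 of miR-3118-3p, and 0.18 without its pull-down replicate 1. It was not alike in the 3 families. For EIF4 it was 0.38 and 0.27, and only the miR-4307-3p groups did not overlap. For EIF2B it was 0.20 and 0.76, the latter from pull-down values of 0.20, 0.69 and 0.62 against inputs of -0.25, -0.24 and -0.27. For EIF3 it was 0.13 and -0.04, with overlap in both. Without the EIF2B subunits the change with miR-4307-3p was 0.0912. EIF2 itself has 3 subunits, all in the small class. No test was made of these sums, because the genes were chosen with earlier results known.

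**Figure D4:**
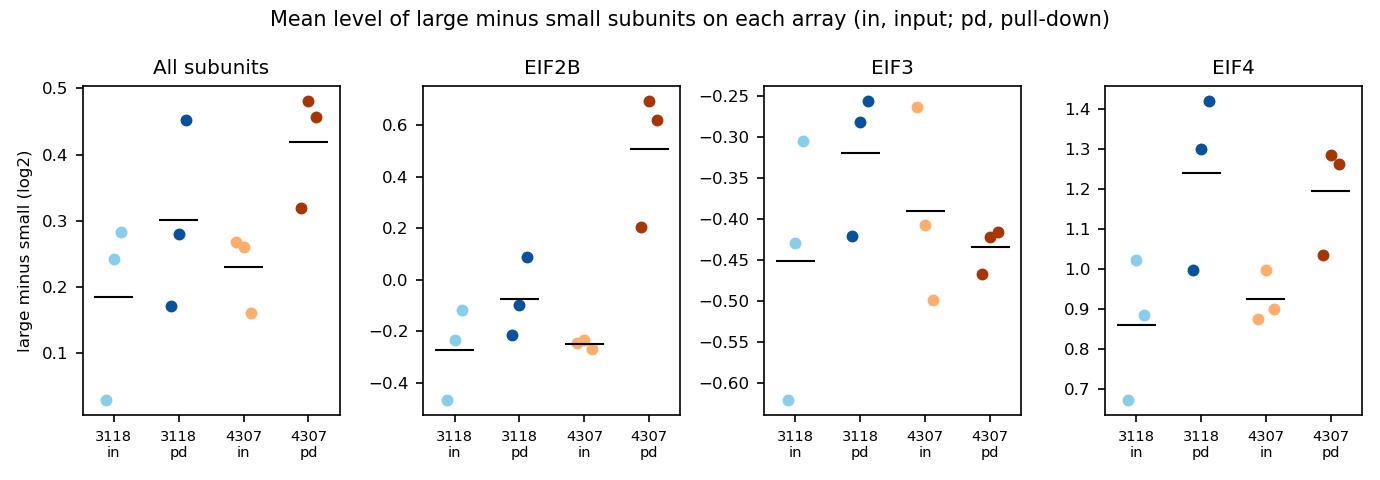
Mean log2 level of the large minus the small subunits (vertical axis, a separate range in each panel) on each array, for all subunits and for EIF2B, EIF3 and EIF4. Points are arrays and bars group means of 3; the EIF2B values of the miR-4307-3p pull-down, from 0.20 to 0.69, lie above all inputs, while the EIF3 groups overlap.

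Other genes of cytoplasmic translation were read from lists, and their shares are to be read against those of all genes given above. Of 18 measured partners at the cap, the poly(A) tail and in scanning, 3 were higher with miR-3118-3p, and 2 were higher and 1 lower with miR-4307-3p. PABPC1, the main cytoplasmic poly(A)-binding protein, which contacts EIF4G, rose by 1.21 ± 0.13 (adjusted p = 7.81e-05) with miR-3118-3p and was at -0.38 ± 0.13 (adjusted p = 0.0654) with miR-4307-3p. The difference between the microRNAs was -1.58 ± 0.18 (adjusted p = 6.29e-05). LARP4, which binds poly(A) and PABPC1, rose by 0.83 ± 0.18 (adjusted p = 0.00509) with miR-3118-3p, and PDCD4, an inhibitor of EIF4A, by 0.70 ± 0.15 (adjusted p = 0.00374), though the dimmer probe of PDCD4 was not called (adjusted p = 0.365). GIGYF2, the partner of EIF4E2 in repression, was higher with miR-4307-3p, at 0.75 ± 0.20 (adjusted p = 0.0175). Its call was lost without pull-down replicate 2 (0.101) or 3 (0.0876) or input replicate 2 (0.0620) or 3 (0.0896). With miR-3118-3p it was at 0.44 ± 0.20. PABPC4, another poly(A)-binding protein, at 0.58 ± 0.15 (adjusted p = 0.0151), and BZW2, at -0.46 ± 0.15 (adjusted p = 0.0487), also called with miR-4307-3p, lost the call in 2 of 12 and 9 of 12 fits without 1 array.

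Among 17 genes of control by mTOR, MNK and stress, 1 was higher and 3 lower with miR-3118-3p (12.7% and 10.9% of all genes). With miR-4307-3p 2 were higher and 1 lower (8.04% and 6.11% of all genes). DDIT3 (CHOP), a transcription factor induced when EIF2 is phosphorylated, rose by 0.93 ± 0.16 (adjusted p = 0.00108) with miR-4307-3p and was at -0.32 ± 0.16 with miR-3118-3p. The difference was 1.25 ± 0.23 (adjusted p = 0.00248). It was also called for PPP1R15A (0.93 ± 0.23, adjusted p = 0.0184) and CDC123 (0.77 ± 0.19, adjusted p = 0.0178). Those 2 calls were lost in 4 of 12 and 2 of 12 fits without 1 array. In this list 3 of 17 were called higher for the difference (4.73% of all genes) and 0 lower (2.86% of all genes). RPS6KB1, the S6 kinase downstream of mTOR, rose by 0.76 ± 0.18 (adjusted p = 0.00855) with miR-3118-3p, a call lost with the spread of those 6 arrays alone (adjusted p = 0.0602), and was at 0.49 (adjusted p = 0.0276) without pull-down replicate 2. RPS6 (-0.33), CDC123 (-0.39) and TRIB3 (-0.45) with miR-3118-3p lost the call in 10 of 12, 9 of 12 and 3 of 12 fits without 1 array, and PPP1R15A (0.66) with miR-4307-3p in 3 of 12. With the 6 miR-3118-3p arrays alone the first 3 were not called (0.126, 0.0907 and 0.0918). RPS6, a protein of the small ribosomal subunit, was lower with miR-4307-3p at -0.75 ± 0.12 (adjusted p = 0.000382), by its brightest probe but not by its dimmest (adjusted p = 0.149). ATF4 was not called, at 0.01 and -0.03. Of 7 elongation factors 1 was lower with miR-3118-3p (10.9% of all genes) and 2 with miR-4307-3p (6.11% of all genes). These were EEF1G (-0.62) in the first, and EEF1B2 (-0.41) and EEF1D (-0.56) in the second, all parts of the exchange factor of EEF1A, and they lost the call in 2 of 12, 5 of 12 and 3 of 12 fits without 1 array. EEF1G was not called with the 6 arrays of miR-3118-3p alone (0.0750). EEF1A1, which delivers aminoacyl-tRNA, was at 0.35 ± 0.13 and 0.15 ± 0.13, and EEF2, the translocase, at -0.10 ± 0.13 and -0.03 ± 0.13. Of 5 termination and recycling factors 1 was higher with each microRNA (12.7% of all genes with miR-3118-3p and 8.04% with miR-4307-3p). The release factor ETF1 rose by 0.67 ± 0.14 (adjusted p = 0.00454) with miR-3118-3p, though its dimmer probe was not called (adjusted p = 0.0638). GSPT2, a GTPase partner of ETF1, rose by 0.59 ± 0.15 (adjusted p = 0.0134) with miR-4307-3p. That call was lost without pull-down replicate 2 (0.0835) or input replicate 1 (0.0653).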

How the data were processed

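The 12 Illumina bead arrays fall into 4 groups of 3 by their titles. The authors deposited normalized log2 values for 15025 probes, and the submitters' processing notes name lumi 2.2.1. The sources used here give neither the normalization, nor the transform (plain log2 or variance-stabilised), nor the probe filter. Signal over background is unknown. Another table, of unnormalized signals, was not used, as none of its 12 sample columns carries a name found in the labels. GEO's platform annotation, brought up to RefSeq symbols by gene identifier, gave 1 symbol to the 12352 probes kept. Y-linked and X-inactivation transcripts were left out. Where a gene had several probes, the brightest on average represented it (9581 genes). For 14 members with several probes, all probes had one sign for 9 with miR-3118-3p and 11 with miR-4307-3p. The lowest input value among these probes was 5.69.

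limma 3.58.1 in R 4.3.3 fitted 4 group means to all 12 arrays (8 residual degrees of freedom), with lmFit and eBayes, two-sided p-values and Benjamini-Hochberg adjustment over 9581 genes. The procedure was tested on simulated data. Figures used matplotlib 3.10.9 in Python 3.11.15. The members, the lists, the size classes and the rule for named genes were chosen with earlier results of these data known. By that rule every member may be named, with values on every array for the 12 called members of lowest adjusted p in each pull-down comparison; single-array values of other members were added where a result turned on them. Deviations from the group mean correlated between same-numbered pull-down and input arrays at 0.204, 0.342 and 0.286 in the miR-4307-3p arm. In the miR-3118-3p arm they correlated at 0.344, 0.0736 and 0.476. Differently numbered arrays were not compared in this way, so whether the numbers pair the arrays is not settled. The main fit assumed no pairing in either arm, and fits with the replicate number as a block are given below. Precision is limited by having 3 arrays per group. Alternatives changed the normalization, the probe rule, the filter, the prior, the arrays in the fit, the weights and the block, or left out 1 array.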

Additional observations from a re-analysis of the deposited data

Results flagged for a closer look

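For 7 of the 52 genes the enrichment differed between the microRNAs by limma's test of the difference itself (miR-4307-3p minus miR-3118-3p, n = 3 arrays per group). It was higher for 4 (4.73% of all genes) and lower for 3 (2.86% of all genes). The enrichment of EIF5B (1.83), EIF4E2 (1.74), EIF3I (1.05) and EIF2B4 (0.73) was higher with miR-4307-3p. EIF2B4 itself was not called with miR-4307-3p (0.21) and was called lower with miR-3118-3p (-0.52). DENR (-1.29), EIF3E (-1.18) and EIF2S3 (-0.65) were recovered more with miR-3118-3p. The calls of EIF2B4 and EIF2S3 were each lost in 10 of 12 fits without 1 array. The dimmer probe of DENR and the other probe of EIF2B4 were not called for the difference. The miR-3118-3p pull-down arrays, which varied most, enter each of these values. Without their replicate 1, 2 or 3 the count of differences called was 11, 6 and 9, and the cause of these shifts was not tested.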

How the results depend on the processing

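Each pull-down result was recomputed under 23 other settings, and each difference and input comparison under 22. Not every setting could change every value. The probe rules left the values of genes with 1 probe as they were, EIF2B2, EIF3E, EIF4E2, EIF5B and MCTS1 among them. For a pull-down difference, leaving out an array of the other microRNA changed only the spread and the test. Calls that held in every setting numbered 7 of 16 for miR-3118-3p, 7 of 13 for miR-4307-3p, and 4 of 7 differences, and no called member changed sign; the cause of the lost calls was not tested. The count of members lower with miR-3118-3p (8) became 4 with cyclic loess and 2 with the spread of 6 arrays alone, and ranged from 3 to 14 when 1 array was left out. The count lower with miR-4307-3p (7) became 4 with cyclic loess and 12 with array weights, and ranged from 3 to 8 when 1 array was left out. The count higher (6) became 10 with array weights and ranged from 4 to 9, and that higher with miR-3118-3p (8) ranged from 7 to 10. The count of differences (7) became 11 with array weights and ranged from 5 to 11. Large minus small subunits kept its sign in all settings run, from 0.04 to 0.18 with miR-3118-3p and from 0.15 to 0.24 with miR-4307-3p when 1 array was left out, and moved to 0.0912 with miR-4307-3p without the EIF2B subunits. The size limits at other lengths and the class of every EIF2, EIF3 and EIF4 symbol were not run, because no protein lengths were used here. With a replicate block across both microRNAs, 8 members were higher and 9 lower with miR-3118-3p, 7 and 7 with miR-4307-3p, and 6 differences and 0 input differences were called, EIF2B4 being lost (adjusted p = 0.0507). With a replicate block within each microRNA the counts were 10 and 12, 8 and 7, 10 and 0. No call of a member in a pull-down was lost with either block. By their dimmest probe 2 genes outside the members were called against the sign of their brightest: ACTB with miR-4307-3p (-0.80, brightest 0.01) and EEF1A1 for the difference (0.93, brightest -0.20).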

Other observations

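Mitochondria have initiation factors of their own. Of 8 measured mitochondrial translation factors 1 was higher and 2 lower with miR-3118-3p, and 2 were higher with miR-4307-3p. Of all genes, 12.7% were higher and 10.9% lower with the first, and 8.04% higher with the second. Both mitochondrial initiation factors rose with miR-4307-3p, MTIF2, which resembles EIF5B in bringing the subunits together, by 1.00 ± 0.15 (adjusted p = 0.000301) and MTIF3 by 0.89 ± 0.18 (adjusted p = 0.00299) (limma, n = 3 arrays per group). With miR-3118-3p, MTIF2 was at -0.47 ± 0.15 (adjusted p = 0.0335), a call lost without pull-down replicate 1 (then -0.31, 0.0896) or input replicate 1 (0.0899), 2 (0.104) or 3 (0.0525) of miR-3118-3p and with its 6 arrays alone (0.0984), and MTIF3 was at -0.27 ± 0.18 (adjusted p = 0.285). The differences between the microRNAs were 1.47 ± 0.21 (adjusted p = 0.000344) for MTIF2 and 1.17 ± 0.25 (adjusted p = 0.00768) for MTIF3. GFM1, a mitochondrial elongation factor, was higher with miR-3118-3p at 0.93 ± 0.28 (adjusted p = 0.0239), a call lost in 4 of 12 fits without 1 array and with those 6 arrays alone (0.0997), and was at 1.39 without pull-down replicate 1 of miR-3118-3p. TSFM, the mitochondrial elongation factor that recharges TUFM, was lower with miR-3118-3p at -0.61 ± 0.14 (adjusted p = 0.00728), and lost the call with the spread of those 6 arrays alone (0.0518). Its difference between the microRNAs was called as well, at 0.88 ± 0.20 (adjusted p = 0.0130). For that difference 3 of the 8 factors were called higher (4.73% of all genes) and 0 lower (2.86% of all genes).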
